A study of Mus musculus with 3 samples.

Results

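Wt1, Lmx1b, Tcf21 and Dach1 are 4 non-forkhead transcription factor genes of the podocyte, an epithelial cell whose foot processes cover the capillaries of the kidney's filter. They were taken by name from the 21887 protein-coding genes of the RefSeq annotation of GRCm38 (mm10), and every peak was kept whose summit lay in the gene's span or at most 50 kb beyond it. This gave 12 peaks, namely 6 of 5207 Foxc1 peaks and 6 of 2878 Foxc2 peaks. The peaks came from chromatin immunoprecipitation with sequencing (ChIP-seq) on glomeruli that were isolated with magnetic beads from C57BL/6 mice at 8 weeks. There was 1 library with an antibody to the forkhead factor Foxc1 (D8A6, CST) and 1 with an antibody to the forkhead factor Foxc2 (AF6989, R&D Systems). A library of input DNA from the same kind of glomeruli was not analysed here. The labels give no genotype or treatment, do not name replicates and do not say whether animals were pooled. With 1 library per antibody, no spread between replicates could be measured and no test was made, and all values describe these libraries.

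Podocyte identity is held by a small set of transcription factors that act on the same genes. Wt1 encodes a zinc finger protein needed for kidney formation and kept on in adult podocytes, and its mutations cause glomerular disease in people. Lmx1b encodes a LIM-homeodomain protein, mutated in nail-patella syndrome. Tcf21, also called Pod1, encodes a basic helix-loop-helix protein of podocytes and kidney mesenchyme, and Dach1 encodes a dachshund-family protein that works with proteins of the eyes absent family. Foxc1 and Foxc2 bind DNA through a forkhead domain. A peak near a gene marks a place where the antibody recovered more DNA than the estimated background. It does not show that the gene responds. Glomeruli also hold mesangial and endothelial cells, and the cell type in which a site was occupied cannot be told apart in these libraries.

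The Lmx1b promoter is shown because it is the one matched promoter in which a Foxc2 peak lay. RefSeq promoter sequences (GRCm38.p6, 250 bases before to 50 after the start) were matched for 3 of the 4 genes, Lmx1b, Tcf21 and Dach1, and not for Wt1. The sequence lies on the minus strand at chr2:33641049-33641348 and reads 5′ to 3′ with the 84 bases inside the Foxc2 peak in capitals:
Lmx1b: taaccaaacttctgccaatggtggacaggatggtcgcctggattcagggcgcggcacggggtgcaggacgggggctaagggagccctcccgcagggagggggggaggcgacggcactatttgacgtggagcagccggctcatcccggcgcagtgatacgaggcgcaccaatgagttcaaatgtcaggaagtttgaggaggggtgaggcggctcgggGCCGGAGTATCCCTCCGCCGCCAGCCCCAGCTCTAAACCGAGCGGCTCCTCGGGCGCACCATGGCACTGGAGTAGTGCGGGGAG

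Neither promoter of Tcf21 or Dach1 was overlapped by a peak of either antibody. Among 21263 promoters of protein-coding genes, 1.35% were overlapped by a Foxc1 peak and 6.06% by a Foxc2 peak. The Lmx1b promoter held 65.7% G and C with 24 CG dinucleotides, Tcf21 had 53.3% with 8 and Dach1 had 54% with 13, beside medians of 56.3% and 13 over all promoters. The forkhead letters GTAAACA (in 3.01% of promoters) and ATAAACA (3.92%) were searched on both strands, and neither was present in any of the 3 windows. The pair share their last letters, and a place can match only one of them on a strand. The letters GCGTGGGNG, used for Wt1 (2.41% of promoters), TAATTA for Lmx1b (4.53%) and CAGCTG for Tcf21 (15.6%) were also not in these windows. The windows held 84 bases of the Foxc2 peak at Lmx1b and no part of any other peak. Peak sequences outside them were not searched.

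Peaks of both antibodies lay at 3 of the 4 genes, Wt1, Lmx1b and Dach1, while Tcf21 had a Foxc2 peak alone. A Foxc1 summit was thus found at 3 of 4 genes, beside 29.3% of all protein-coding genes. Foxc2 summits were found at 4 of 4, beside 23.2%. Both antibodies were present at 12.5% of all protein-coding genes. The 4 genes were chosen with earlier results of these data known. The peaks were dealt out unevenly, with 2, 1, 0 and 3 Foxc1 peaks and 1, 3, 1 and 1 Foxc2 peaks at Wt1, Lmx1b, Tcf21 and Dach1. Over the 913.1 kb of the 4 windows the density was 0.657 peaks per 100 kb for each antibody. The density over the union of all protein-coding windows was 0.261 per 100 kb for Foxc1 and 0.16 for Foxc2. No other protein-coding gene had any of the 12 summits within its own 50 kb window, so none of these peaks was counted for a neighbour. Inside the gene spans lay 5 of 6 Foxc1 summits, beside 56.4% of all Foxc1 peaks, and 5 of 6 Foxc2 summits, beside 66.3% of all Foxc2 peaks. Those shares include peaks more than 50 kb from any protein-coding gene, which cannot lie inside one. Of peaks within 50 kb of any such gene, 2939 of 4409 for Foxc1 and 1908 of 2700 for Foxc2 lay inside a span.

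**Figure D1:**
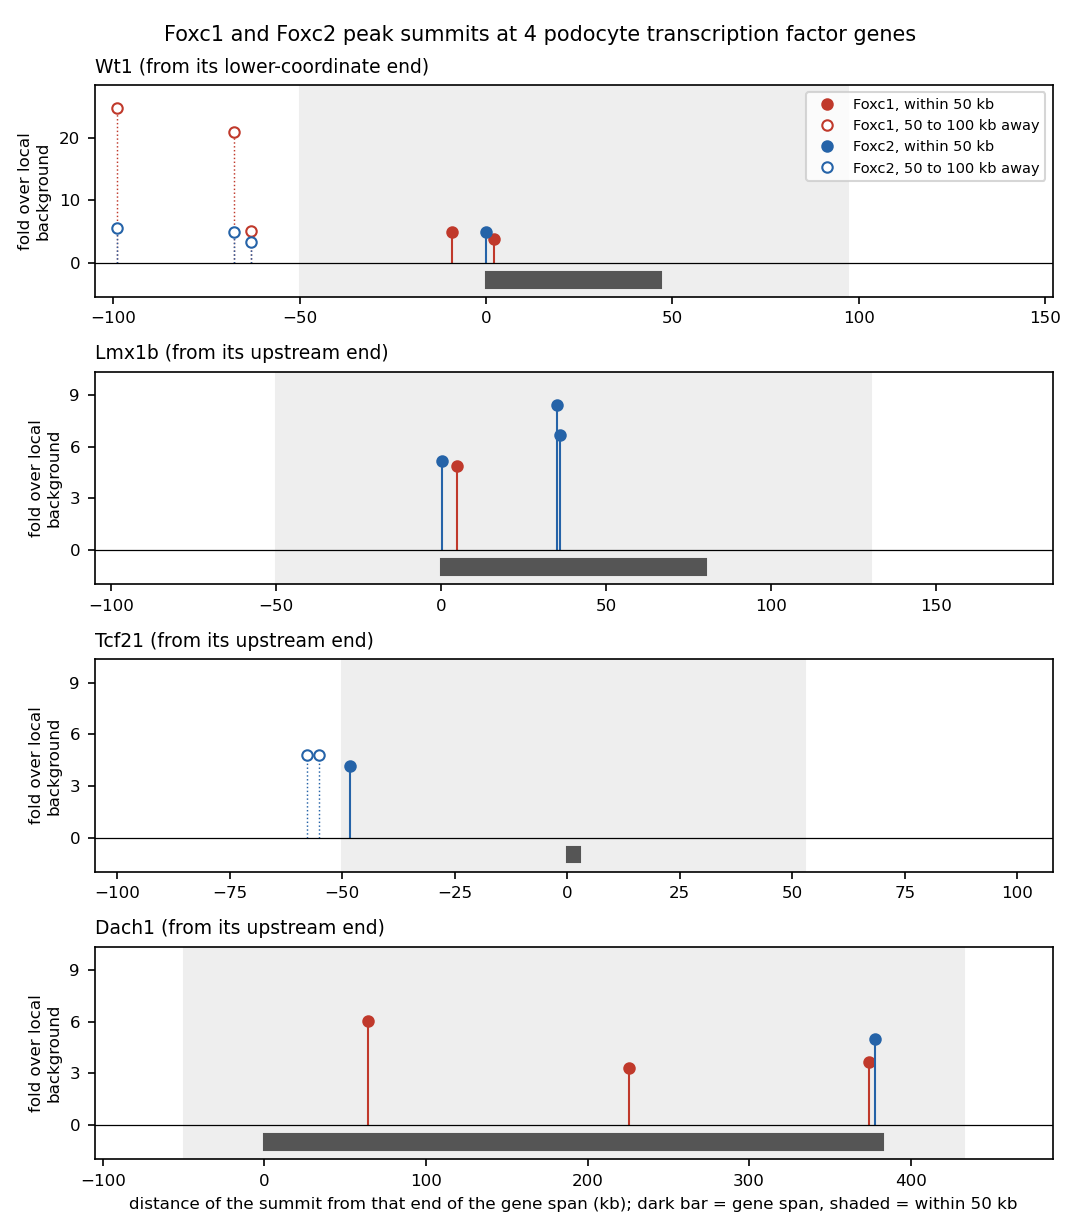
Peak summits at Wt1, Lmx1b, Tcf21 and Dach1, by distance in kb from the upstream end of the gene span (the lower-coordinate end for Wt1). The vertical axis is the caller's fold over its estimated background. Filled points lie in the span or within 50 kb of it, as for the 4 peaks of Lmx1b, and open points lie 50 to 100 kb away, where Wt1 has 3 Foxc1 and 3 Foxc2 peaks and Tcf21 has 2 Foxc2 peaks.

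Lmx1b (gene 16917, chr2:33560965-33641208, minus strand) carried the strongest Foxc2 peaks of the set. Its pair of peaks deep inside the gene, at chr2:33605197-33605485 and chr2:33605845-33606262, had folds of 6.71 and 8.43. A fold here is the authors' own value, the signal at the summit over the background that their peak caller estimated. The summits lay 0.688 kb from each other and 35.7 and 35 kb downstream of the RefSeq start. In the Foxc2 list these peaks stood above 94.9% and 98.3% of all peaks by fold, at ranks 138 and 50. The third Foxc2 peak, at chr2:33640854-33641132 with a fold of 5.16, covered the start itself, with its summit 0.12 kb downstream. This is the peak whose edge is in capitals in the promoter above.

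A single Foxc1 peak of fold 4.90 lay between these places, at chr2:33636408-33636674, with its summit 4.55 kb downstream of the start and 4.43 kb from the nearest Foxc2 summit. At least 3 Foxc2 summits were found at 2.03% of all protein-coding genes. Among 4661 other genes with spans 0.5 to 2 times as long as that of Lmx1b, the share was 2.12%, and 37% of them had at least 1 Foxc1 summit. The next Foxc1 and Foxc2 peaks beyond the Lmx1b window lay 211.6 and 345 kb from the gene. The noncoding gene C130021I20Rik begins on the plus strand 95 bp from the Lmx1b start, and no peak of either antibody covered that second start.

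Wt1 (gene 22431, chr2:105126529-105173614) had its Foxc2 peak across the lower-coordinate end of the gene, at chr2:105126336-105126758, with a fold of 4.99 and a summit 0.102 kb inside. The noncoding gene Wt1os begins on the minus strand 19 bp from that end, and the same Foxc2 peak covered its start as well. Foxc1 peaks flanked this place and did not overlap it. One, of fold 4.90, lay at chr2:105117374-105117649, 9.03 kb outside the gene and within the span of Wt1os. The other, of fold 3.80, lay at chr2:105128617-105128864, 2.26 kb inside the gene and 2.15 kb from the Foxc2 summit. Among 6457 genes with spans 0.5 to 2 times as long, at least as many Foxc1 peaks were found at 9.35% and at least as many Foxc2 peaks at 26.5%.

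Just beyond the 50 kb limit of Wt1, on the Wt1os side, lay places held by both antibodies. They were made up of 3 Foxc1 peaks and 3 Foxc2 peaks between 62.9 and 99 kb from the gene, and each overlapped a peak of the other antibody. The strongest pair, at 99 kb, had a Foxc1 fold of 24.84 (chr2:105027134-105027806) and a Foxc2 fold of 5.50, with summits 24 bp apart. The second pair, at 67.7 and 67.6 kb, had a Foxc1 fold of 20.88 (chr2:105058499-105059166) and a Foxc2 fold of 5. In the third, at 63.2 and 62.9 kb, the folds were 5.06 for Foxc1 and 3.33 for Foxc2. The leading pair of Foxc1 peaks stood above 99% and 98.2% of the Foxc1 list by fold. Within the limit the highest Foxc1 fold at Wt1 was 4.90. The nearest protein-coding gene to all 6 was Eif3m, a translation initiation factor gene, at 10.5 to 46.6 kb, and which gene these places belong to was not tested.

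Tcf21 (gene 21412, chr10:22817263-22820143, minus strand) is the shortest of the set, and no peak lay in it or near its start. Its Foxc2 peak, at chr10:22868369-22868610 with a fold of 4.13, had a summit 48.4 kb upstream, just inside the limit. Just outside it were another pair of Foxc2 peaks, 55.2 and 57.9 kb from the gene, both of fold 4.81, so that 3 Foxc2 summits stood in a row of which the limit took 1. Tcf21 was the nearest protein-coding gene to all 3. A noncoding gene, Gm46217, lay between Tcf21 and all 3 summits, and so closer to each of them, at 11 kb from the first. No Foxc1 peak lay within 305.8 kb of Tcf21, and the nearest, of fold 20.73, was inside Eya4, which encodes a coactivator of the eyes absent family. Among 3452 genes with spans 0.5 to 2 times as long as Tcf21, Foxc1 peaks were found at 25% and Foxc2 peaks at 22.8%.

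Dach1 (gene 13134, chr14:97786846-98169765, minus strand) had all its peaks inside the gene, and the nearest of them lay 64 kb from its start. Its 3 Foxc1 peaks lay 64, 225.7 and 374.3 kb downstream of the start, at folds of 6.01, 3.32 and 3.67. The strongest of these, at chr14:98105472-98105995, was also the strongest Foxc1 peak of the set, and stood above 68.4% of the Foxc1 list. The Foxc2 peak, of fold 5 at chr14:97791747-97792008, lay in the last part of the gene, 5.02 kb from its downstream end and 3.61 kb from the nearest Foxc1 summit. At least 3 Foxc1 summits were found at 3.1% of all protein-coding genes. Among 942 genes with spans 0.5 to 2 times that of Dach1 the share was 14.3%, and 25.9% of them had at least 1 Foxc2 summit. Its window of 483 kb is the longest of the 4. Exons and introns were not used here, so these places are given by distance alone. Beyond the window, the next peaks lay 1111.8 kb away for Foxc1 and 929.8 kb away for Foxc2.

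By fold, 5 of the 6 Foxc1 peaks at these genes stood at or below the median of their list, and 6 of the 6 Foxc2 peaks stood above the median of theirs. Their Foxc1 folds had a median of 4.35 (range 3.32 to 6.01), beside a median of 4.90 and a highest value of 50.5 over the whole Foxc1 list. Their Foxc2 folds had a median of 5.08 (range 4.13 to 8.43), beside a median of 3.97 and a highest value of 16 over the whole Foxc2 list. A fold of 5 or more was reached by 1 of 6 Foxc1 peaks, that of Dach1, and by 4 of 6 Foxc2 peaks, 3 at Lmx1b and 1 at Dach1. Over the whole lists, 47.9% of Foxc1 peaks and 18.1% of Foxc2 peaks reached it. The lowest peak of the set by rank was the middle Foxc1 peak of Dach1, which stood above 3.42% of its list and had a minus log10 q of 3.4. Heights were read within each list only, since the libraries may differ in depth, which peak lists do not give.

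**Figure D2:**
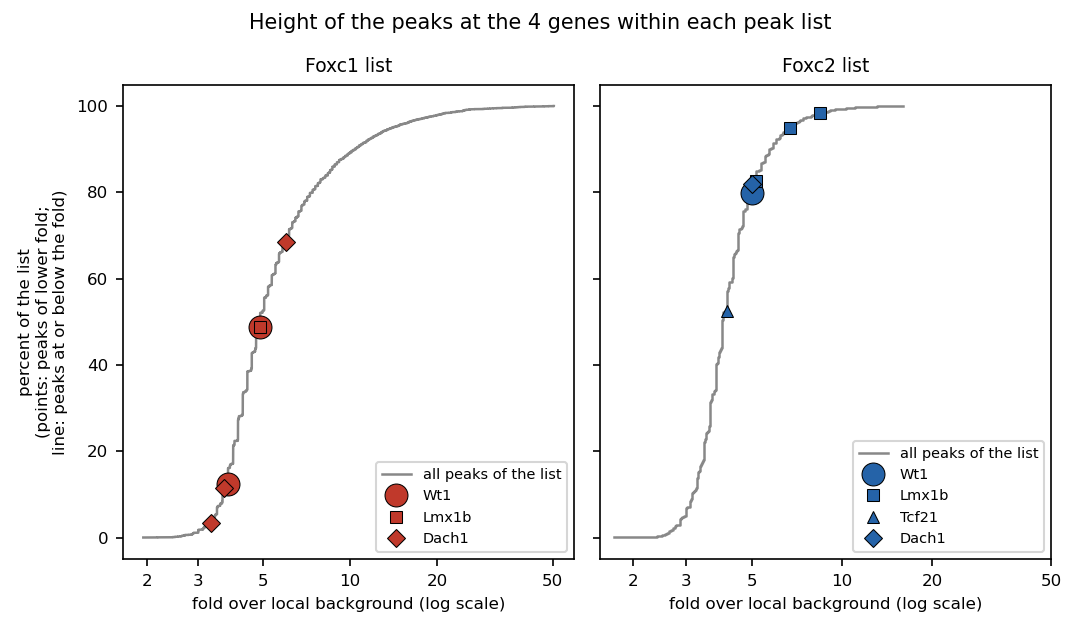
Fold over the caller's estimated background (log axis) of the peaks at the 4 genes. They are set on the cumulative curve of all 5207 Foxc1 peaks and all 2878 Foxc2 peaks. The Lmx1b pair at folds of 6.71 and 8.43 sits highest in the Foxc2 list, while every Foxc1 peak of the set sits at or below a fold of 6.01 (the Foxc1 points of Wt1 and Lmx1b at 4.90 coincide).

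None of the 12 peaks was overlapped by a peak of the other antibody, by 1 bp or more. Over the whole lists, 8.2% of Foxc1 peaks and 14.8% of Foxc2 peaks were overlapped, and a count of 0 of 6 in either list does not stand out beside those shares. The antibodies came nearest to each other at Wt1 (2.15 kb between summits), Dach1 (3.61 kb) and Lmx1b (4.43 kb). A summit within 1 kb of the gene's start, or of either end for Wt1, was found for 0 of 6 Foxc1 peaks and 2 of 6 Foxc2 peaks, those of Wt1 and Lmx1b. Summits within 1 kb of an end of any protein-coding gene made up 10.9% of all Foxc1 peaks and 52.4% of all Foxc2 peaks. Those shares count both ends of each gene, which is wider than the start alone used for Lmx1b, Tcf21 and Dach1. The lower-coordinate end of Wt1 is not given as its start in the tables used. At both places the Foxc2 summit lay inside the gene, and the nearest Foxc1 summit lay farther in, at 2.26 kb from the end of Wt1 and 4.55 kb from the start of Lmx1b.

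Other podocyte transcription factor genes, listed with earlier results of these data known, also carried peaks often. Of 16 genes, 13 carried Foxc1 peaks and 8 carried Foxc2 peaks (81.2 and 50%, beside 29.3 and 23.2% of all protein-coding genes), 7 had both and 2 had neither. Their median span was 54.5 kb, beside 17.2 kb for all protein-coding genes. Longer genes can collect more summits, and whether length bears on these shares was not tested. Hes1, a Notch target repressor, had 3 Foxc1 peaks (highest fold 6.88) and 3 Foxc2 peaks (highest fold 7.67) around a gene of 2440 bp. Creb3l2, a membrane-bound bZIP factor, had 1 of each, at folds of 4.75 for Foxc1 and 5.67 for Foxc2, as did Zhx3, a zinc finger and homeobox repressor (5.84 and 3.44), and Myrf, a membrane-tethered factor (4.43 and 4.30). Tead1, the DNA-binding partner of Yap, had 1 Foxc1 and 2 Foxc2 peaks, with folds of up to 4 and 4.83. The genes with neither, Zhx2 and Sox4, are named after their values were seen.

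Likeness was measured as the distance between genes in their numbers of Foxc1 and Foxc2 peaks, over 2 libraries. Nr3c1, the glucocorticoid receptor gene, had the same counts as Wt1 (2 and 1), with folds of up to 5.63 for Foxc1 and 2.36 for Foxc2, and Myrf was 1 of 5 genes tied at a distance of 1 peak, named for its nearest span length. Nfatc1, a calcineurin-controlled factor, had the same counts as Dach1 (3 and 1), with folds of up to 9.81 and 3.95, and Nr3c1 followed. Tead1 and Srf, the serum response factor gene with 0 and 2 peaks, were nearest to Lmx1b, at distances of 1 and 1.41 peaks. At Tcf21, 6 genes were tied at a distance of 1 peak, of which Sox4 and Srf had the nearest span lengths. With so few peaks per gene many genes share the same counts.

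**Figure D3:**
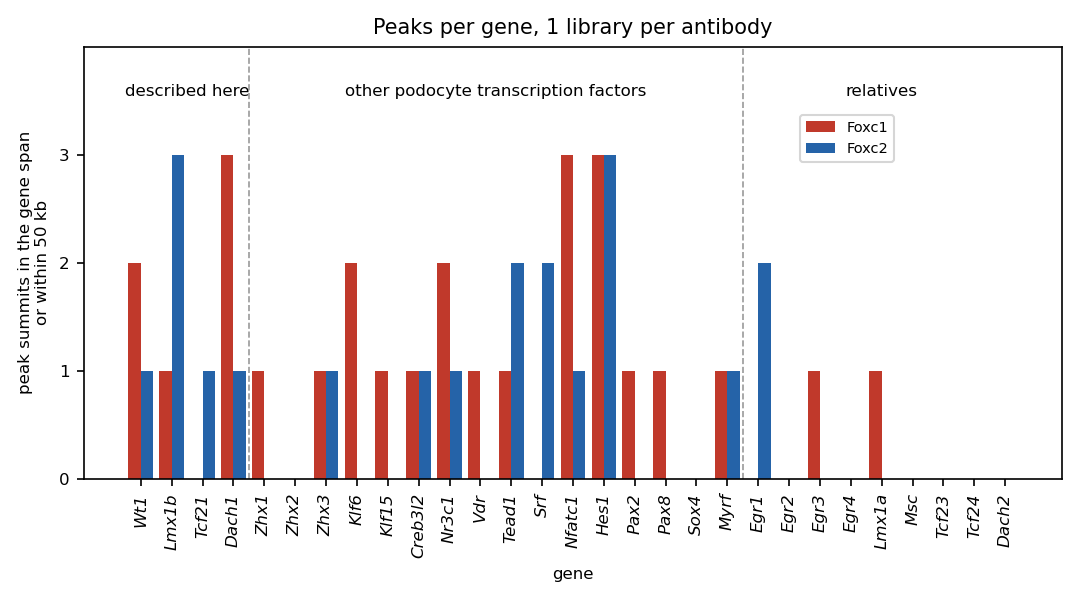
Number of Foxc1 and Foxc2 peak summits in the span or within 50 kb of each gene, for the 4 genes described, 16 other podocyte transcription factor genes and 9 relatives of the 4 genes. Lmx1b and Hes1 have 3 Foxc2 peaks each, Dach1, Nfatc1 and Hes1 have 3 Foxc1 peaks each, and 6 of the 9 relatives have no peak.

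The relatives examined were the Egr genes, whose zinc fingers resemble those of Wt1, and Lmx1a, Dach2, Msc, Tcf23 and Tcf24. Of these 9 genes, 2 carried Foxc1 peaks and 1 carried Foxc2 peaks (22.2 and 11.1%, beside 29.3 and 23.2% of all protein-coding genes), and none had both. Those with a peak are named after their values were seen. Lmx1b had 1 Foxc1 and 3 Foxc2 peaks, against 1 Foxc1 peak of fold 4.90 and no Foxc2 peak at Lmx1a. Dach1 had 3 Foxc1 peaks and 1 Foxc2 peak, against none of either at Dach2, which lies on the X chromosome with a span of 538891 bp. Egr3 had 1 Foxc1 peak of fold 16.01, and Egr1 had 2 Foxc2 peaks of fold up to 4.67. The median span was 63.7 kb for the 4 genes described, against 7.72 kb for their relatives and 17.2 kb for all protein-coding genes, so the lists differ in length as well as in peaks.

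Genes of partner proteins, with a median span of 56.4 kb, lay nearer to the level of all genes. Of 19, 7 carried Foxc1 peaks and 7 carried Foxc2 peaks (36.8% each, beside 29.3 and 23.2% of all protein-coding genes), 3 had both and 8 had neither. Pawr, which encodes a protein that binds Wt1, had 3 Foxc1 peaks (up to 7.12) and 2 Foxc2 peaks (up to 4). Cited2, a coactivator, had 2 and 1, with folds of up to 5.22 and 3.61. Tcf12, which encodes a helix-loop-helix partner of Tcf21, had 2 and 1, with folds of up to 4.29 and 4.64. Peaks do not measure expression, so marker genes of cell types were used only to say where peaks lay, and cannot check the labelled tissue. Of 5 marker genes each, podocyte markers carried Foxc1 peaks at 5 and Foxc2 peaks at 4, and mesangial markers at 4 and 1. Proximal tubule markers carried them at 2 and 2, and glomerular endothelium markers at 1 and 1. The shares over all protein-coding genes were 29.3 and 23.2%, and proximal tubule markers, at 40% for each antibody, also lay above them. The marker lists were also chosen with earlier results of these data known. What share of the peaks came from each cell type was not tested.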

How the data were processed

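ChIP-seq peak lists of 2 libraries, Foxc1 and Foxc2, were used, both on mm10. Per the submitters' processing notes, the tools were Bowtie2 for mapping and MACS2 for peaks. Not given in the sources used here are their versions and settings, the control and any pooling. The deposited lists give for each peak a fold enrichment (a ratio to estimated background), a −log10 p-value and a −log10 q-value. These were made by the authors' peak caller. Depth is unknown, since the lists hold no read counts. Peaks on chromosomes 1 to 19, X and Y were kept, 5207 of 5213 and 2878 of 2881. Summits were assigned to RefSeq GRCm38.p6 gene spans within 50 kb with Python 3.11.15, pandas 2.3.3 and numpy 2.4.6, and the assignment was tested on simulated data. Overlap was counted from 1 bp. Starts and strands came from the RefSeq promoter table where it held the gene.

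The genes described and the other gene lists were chosen with earlier results of these data known. Named were the 4 genes with each peak, list genes with peaks of both antibodies, the 2 genes of the podocyte factor list nearest in peak counts to each of the 4, and a few genes named later, as stated. The results of 1 gene of that list are not reported here, and it was left out of the counts. Alternatives changed the distance, peak thresholds, list length, assignment and overlap.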

Additional observations from a re-analysis of the deposited data

How the results depend on the processing

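No call rests on replicates, so leaving out a library was not possible. No paired analysis was possible because each antibody has 1 library. With peaks of fold 5 or more alone, Foxc1 peaks at the 4 genes numbered 1 in place of 6, at 1 gene. Foxc2 peaks of that fold lay at 2 genes in place of 4, Wt1 and Tcf21 having none of either antibody. Over the whole lists, 47.9% of Foxc1 peaks and 18.1% of Foxc2 peaks reached that fold. The share of all protein-coding genes with such a peak was not counted. The Foxc2 peak of Wt1, at 4.99, fell just short of the threshold, while that of Dach1, at 5, just met it. With as many Foxc1 peaks as the Foxc2 list holds, taken by fold, 3 of the 6 Foxc1 peaks were left, at the same number of genes, 3. With summits counted up to 100 kb, the Foxc2 peaks numbered 11 and the peaks shared by both antibodies 6 in place of 0. The shared peaks, all at Wt1, were 3 of 9 Foxc1 peaks and 3 of 11 Foxc2 peaks. Over the whole lists, 8.2% of Foxc1 peaks and 14.8% of Foxc2 peaks were overlapped. Within 5 kb of a start, or of either end for Wt1, peaks numbered 4 in place of 2. Shares over all genes were not counted at 100 kb, nor shares over all peaks at 5 kb. The other 41 values for the 4 genes together stayed within 1.5 times the reported value. Among them, Foxc1 peaks up to 100 kb numbered 9 in place of 6. Also among them is the shared count of 0, which settings that only narrow the set or tighten the overlap could not change. Keeping only the nearest protein-coding gene could not change the counts either, since no other protein-coding gene had these summits in its window. Tcf21 lost its peak with limits of 25 kb or less. Depth is unknown, so a place with no peak may be one missed.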

Other observations

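Peak heights in these lists take few distinct values. Of the Foxc1 peaks, 94.3% share their exact fold, p and q with at least 1 other peak, and the same holds for 94.4% of the Foxc2 peaks. The Foxc1 peaks of Wt1 and Lmx1b at fold 4.90 are such a pair, and 176 Foxc1 peaks in all have that fold. By contrast, no other Foxc2 peak has the fold of the strongest Lmx1b peak, 8.43.

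Eya4, whose gene holds the Foxc1 peak nearest to Tcf21 on chromosome 10, had that 1 Foxc1 peak of fold 20.73 and no Foxc2 peak, and is named after its value was seen. The summit of that peak lies 305.8 kb from Tcf21, beyond the limit used.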
